A study of Mus musculus with 8 samples.

Results

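Fibroblast growth factor (Fgf) receptors, the co-receptor beta-Klotho and the Fgf ligands of the pancreatic surroundings were followed here in embryonic mouse pancreas. The tissue was taken with and without Cre-driven deletion of Sox9, a transcription factor gene. The set holds 9 genes, namely Fgfr1, Fgfr2, Fgfr3, Fgfr4, Fgfrl1, Klb, Fgf7, Fgf9 and Fgf10, out of 27814 gene names on the array. It was chosen by gene name, taking each non-control probe that carries a member's name or an older alias. This gave 19 of 41174 probes. A probe for filaggrin, whose symbol Flg is an old alias of Fgfr1, was left out.

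Total RNA of dorsal pancreatic epithelia, dissected by hand at stage e12.5 of gestation, was hybridised to 8 single-colour Agilent arrays. The mutant group was Sox9fl/fl; Pdx1-Cre (4 arrays), in which a Cre transgene under the Pdx1 promoter removes the floxed Sox9 gene in the developing pancreas. The group labelled wild-type was Sox9fl/fl without the transgene (4 arrays), and so carried the floxed alleles too. The floxed line had a mixed FVB/N and C57Bl/6J background and the Pdx1-Cre line a C57Bl/6J background. Each RNA was a pool of 3 embryos. The series text gives a smaller number of biological replicates per genotype than the 4 arrays labelled as such, so n = 4 rests on the sample labels, and p-values measure the spread between these pools. Presence of Cre and loss of Sox9 divide the samples in the same way and cannot be told apart.

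Fgf ligands bind receptor tyrosine kinases together with heparan sulfate, and the receptors pass the signal on mainly through Frs2, Ras and the Mapk cascade. In the embryonic pancreas, Fgf10 made by the mesenchyme acts on the epithelial progenitors through the epithelial splice form of Fgfr2 and keeps them growing. Beta-Klotho, encoded by Klb, is the membrane co-receptor through which the endocrine Fgfs reach Fgfr4 or Fgfr1, and Fgfrl1 is a receptor-like protein that lacks the kinase domain.

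Probe sequences show what each measurement reads. All are given 5′ to 3′ as in the scanner files, with positions on mouse assembly mm8. The 3 Fgfr2 probes lie on the minus strand of chromosome 7, at chr7:129955089-129955148, chr7:129954346-129954405 and, 78511 bases from the start of the first, chr7:130033600-130033659. They are shown because they read separate stretches of the gene. For the first and second, the first 30 bases are given, with no capitals. The scanner files list both RefSeq transcript variants for these, and for the last only variant 1.
Fgfr2 A_51_P432403: ctgcctcagtatccacacataaacggcagt
Fgfr2 A_52_P363110: gaggactagttaatctattgcttggactta
Fgfr2 A_52_P158800: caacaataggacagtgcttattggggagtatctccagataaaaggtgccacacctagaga

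Fgfr4 has 3 probes on the plus strand of chromosome 13. A_51_P408100 (chr13:55178238-55178297) was designed on the RefSeq mRNA, and its first 30 bases are given. The files describe the target of the other pair, A_52_P686383 (chr13:55177486-55177545) and A_52_P144363 (chr13:55177621-55177680), as Fgfr4 splice variant 17b. The pair is shown because its values differ from those of the first probe. Introns usually begin with GT and end with AG, and capitals mark a GTAATG at base 49 of A_52_P686383 and a TTGCAG that ends at base 27 of A_52_P144363. The genome stretch from that GT to that AG covers 114 bases (chr13:55177534-55177647). The files do not annotate its borders, and no genome was used here to check them.
Fgfr4 A_51_P408100: ccctccattgcttgttccagcatcttggtg
Fgfr4 A_52_P686383: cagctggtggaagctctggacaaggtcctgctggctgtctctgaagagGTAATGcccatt
Fgfr4 A_52_P144363: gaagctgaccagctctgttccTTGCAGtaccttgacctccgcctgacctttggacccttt

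Probe pairs of Fgfr1 and of Fgfr3 overlap and share most of their bases, so the probes of a pair are not independent measurements. The Fgfr1 pair lies on the plus strand at chr8:27039136-27039195 and chr8:27039115-27039174 and shares 39 bases with a single substitution, G36A, counted from the 5′ end of A_52_P668810 and in capitals. The Fgfr3 pair lies on the plus strand at chr5:34053130-34053189 and chr5:34053107-34053166 and shares 37 bases with the substitution C5T, counted from the 5′ end of A_52_P506516. Of the Fgfr3 probes, 30 bases around that position are given.
Fgfr1 A_52_P668810: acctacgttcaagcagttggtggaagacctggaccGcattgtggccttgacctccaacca
Fgfr1 A_51_P109469: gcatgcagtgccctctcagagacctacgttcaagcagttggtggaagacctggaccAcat
Fgfr3 A_52_P506516: ggcaCggcagttttgtttgtactggacctg
Fgfr3 A_51_P322906: ttttctggcaTggcagttttgtttgtactg

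The arrays differed in brightness and lay on 3 slides. The 75th percentile of the processed signal ran from 372 to 640, and the share of spots well above background from 59.4% to 77.7%. Levels below are log2 processed signals minus that percentile, so 0 is the 75th percentile of an array. Values are listed in the order of replicate numbers, with 4 wild-type pools first. Sox9 itself read 3.01, 2.13, 1.82 and 2.19 in the wild-type and -0.61, -1.79, -0.0057 and 0.77 in the mutant pools. It was 6.49-fold lower in the mutant (adjusted p = 0.0253, limma), and signal remained in every mutant pool. Of 18498 genes tested, 994 (5.37%) passed an adjusted p of 0.05, with 706 lower and 288 higher in the mutant, and the median difference of all genes was 0.02. Y-linked genes were lower in wild-type replicates 1, 2 and 4 than in any mutant pool (Eif2s3y, -6.76, -3.78 and -6.55 against -0.82 or more), and wild-type replicate 3 (-0.13) read within the mutant range, so sex ran in part with genotype.

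Transcripts of several cell types besides epithelium were measured in both genotypes, and their levels moved with genotype. Of 23 epithelium genes tested, 20 fell and none rose, with a median difference of -2.13, among them Cldn3 (-2.75), Cdh1 (-2.51) and Esrp1 (-2.50). Their mean level lay between 0.99 and 1.52 in the wild-type arrays and between -1.22 and -0.02 in the mutant arrays. Of 21 mesenchyme genes, 4 rose and none fell (median 0.64), among them Pdgfra (0.80), Postn (0.73) and Meox1 (0.72), with a mean level of 1.61 to 1.85 in wild-type and 2.05 to 2.46 in mutant arrays. Of 11 mesothelium genes 3 rose, of 20 endothelium genes 2 rose, and of 17 macrophage genes 5 rose, with medians of 0.80, 0.41 and 0.63. Of 12 neural crest genes 3 fell (median -0.46), of 15 liver genes 4 rose and 1 fell (median 0.36), and of 10 erythroid genes none passed in limma (median 0.44), 5 having an unadjusted p under 0.05. In bulk RNA, fewer cells of a type and less RNA per cell cannot be told apart, and the part of tissue make-up in the differences below was not tested.

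Of the 9 genes, 8 had a probe bright enough to test, which here means that the scanner software marked it well above background on 4 or more of the 8 arrays. Fgfr4, Klb, Fgfr2 and Fgfrl1 fell in the mutant, and none of the 8 rose in limma, with Fgfr1 alone higher at an unadjusted p under 0.05. Among all genes tested, 3.82% fell and 1.56% rose. Each of the 4 was lower in every mutant pool than in every wild-type pool, while Fgfr1, Fgfr3, Fgf9 and Fgf10 overlapped between genotypes. Such separation downwards was found for 7.98% of all genes. Of the 16 probes kept, 7 fell, beside 2.88% of all probes, and none rose, beside 0.873%. Those 7 belong to the same 4 genes.

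**Figure D1:**
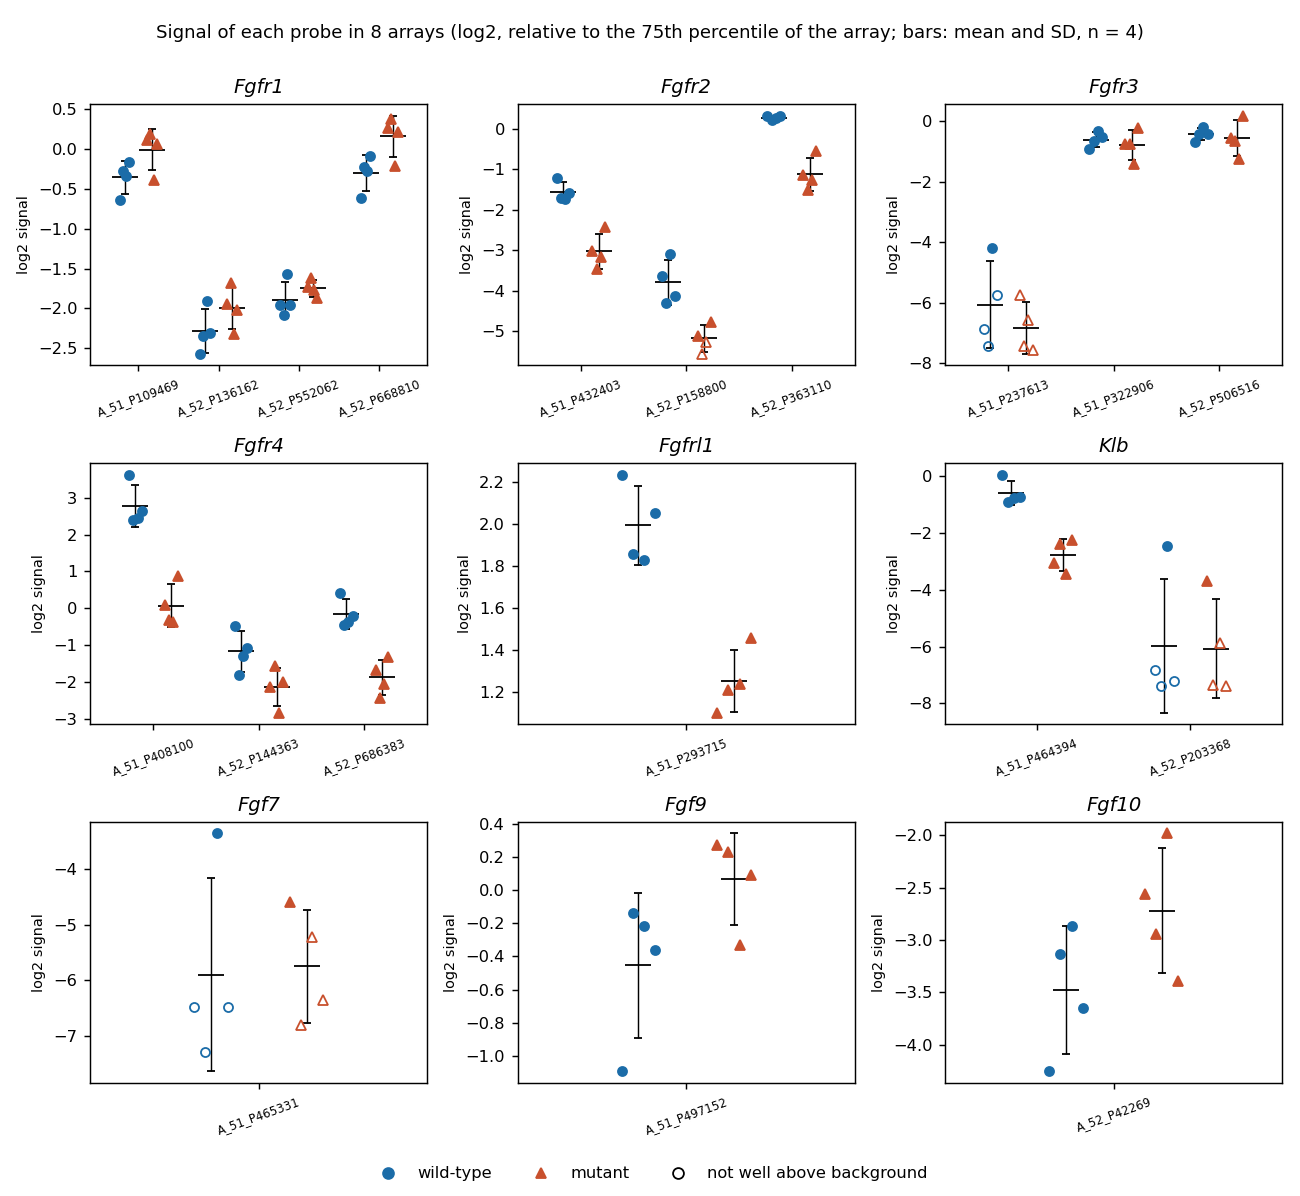
Log2 processed signal of the 19 probes of the 9 genes, relative to the 75th percentile of each array. Points are arrays (circles wild-type, triangles mutant, open where not well above background) and bars give mean and SD (n = 4); the groups are apart at the Fgfr2 probes, Fgfrl1, Klb A_51_P464394 and 2 of 3 Fgfr4 probes.

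Fgfr4, a receptor of endocrine and paracrine Fgfs, showed the largest fall of the 8 genes when each was read by its brightest probe. Its probe A_51_P408100 read 3.63, 2.40, 2.46 and 2.64 in the wild-type and 0.08, -0.33, -0.38 and 0.88 in the mutant pools. As processed signals these were 4595, 3264, 2895 and 4001 against 649, 415, 318 and 1150. The dimmest wild-type pool was thus brighter than the brightest mutant pool, mutant replicate 4. The mean fell from 2.78 ± 0.57 to 0.06 ± 0.58 (SD, n = 4), a difference of -2.72 ± 0.36 (SE) or 6.58-fold, with an adjusted p of 0.00879 in limma. On slides 1, 2 and 3 the difference was -2.77, -1.98 and -3.47.

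The pair of Fgfr4 probes designed on splice variant 17b gave smaller differences. A_52_P686383 read 0.42, -0.46, -0.38 and -0.21 in the wild-type and -1.68, -2.44, -2.06 and -1.32 in the mutant pools, again without overlap, and was 3.30-fold lower (difference -1.72, adjusted p = 0.0170 over all probes, limma). Without wild-type replicate 4 it did not pass (adjusted p = 0.0577). A_52_P144363 read -0.48, -1.81, -1.30 and -1.07 against -2.14, -1.57, -2.83 and -1.99, where mutant replicate 2 lay above wild-type replicate 2. Its difference of -0.97 (95% interval -1.74 to -0.20) did not pass (adjusted p = 0.172, limma), and with the slide as a fixed block it did (-0.85, adjusted p = 0.0404, in a range of 0.0404 to 0.339 over 18 alternatives).
The 3 probes differed in brightness, and the part of probe response in their unequal differences was not tested. Taken within each array, the difference at A_51_P408100 exceeded that at A_52_P686383 by -0.997 and that at A_52_P144363 by -1.75, and in both cases the 4 mutant arrays lay apart from the 4 wild-type arrays. With the mean of the 3 kept probes in place of the brightest, the Fgfr4 difference was -1.80 and passed, and was then smaller than that of Klb (-2.20).

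Klb, the co-receptor that pairs with Fgfr4 in bile acid signalling of the liver, fell together with it. Its probe A_51_P464394 (chr5:65662822-65662881) read 0.07, -0.90, -0.78 and -0.73 in the wild-type and -3.05, -2.38, -3.45 and -2.26 in the mutant pools. Every mutant pool was below every wild-type pool, by at least the gap between -0.90 and -2.26. The mean went from -0.58 ± 0.44 to -2.79 ± 0.56 (SD, n = 4), a difference of -2.20 ± 0.32 (SE) or 4.60-fold (adjusted p = 0.00990, limma). The slides gave -2.56, -1.88 and -2.05. With each array's background modelled by normexp the Klb difference was -1.52, and in the authors' value table it was -1.65, both past the threshold.
A second Klb probe, A_52_P203368, lies 33947 bases away and was designed on a cDNA clone of small intestine. It was well above background only in wild-type replicate 3 and mutant replicate 1, and gives no fold. These are the arrays with the highest shares of spots well above background, 77.7% and 75.3%, and both lay on slide 2.

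Fgfr2, the receptor for mesenchymal Fgf10 and Fgf7 in its epithelial form, fell at all 3 probes, though at the dimmest the call depended on the processing. The brightest, A_52_P363110, was tightly held in the wild-type pools at 0.33, 0.21, 0.28 and 0.31 and spread over -1.14, -1.51, -1.26 and -0.55 in the mutant pools. The SD was 0.050 in the wild-type and 0.41 in the mutant group, and mutant replicate 4 was the highest mutant pool, as it was for Fgfr4, Klb, Fgfrl1 and Sox9. The difference was -1.40 ± 0.19 (SE) or 2.63-fold, with an adjusted p of 0.00957 in limma, and it was -1.47, -1.12 and -1.83 on the 3 slides.
A_51_P432403 is printed 10 times on each array, and its spots varied by a median SD of 0.067 within an array. It read -1.22, -1.71, -1.73 and -1.57 in the wild-type and -3.02, -3.47, -3.17 and -2.44 in the mutant pools, a 2.76-fold fall (difference -1.46, adjusted p = 0.0152 over all probes, limma). Between pools the SD was 0.24 in the wild-type and 0.43 in the mutant group. Without wild-type replicate 4 the same probe gave -1.47 with an adjusted p of 0.0538, and without mutant replicate 1 it gave -1.47 with an adjusted p of 0.0508, the 2 of 18 alternatives in which the call was lost. With normexp background its difference was -0.90, and that of the brighter A_52_P363110 was -1.20.
A_52_P158800, the probe listed for variant 1 alone, was dim, at -3.65, -4.31, -3.08 and -4.13 against -5.12, -5.55, -5.27 and -4.77. It was well above background on all 4 wild-type arrays and on 2 of the 4 mutant arrays. Its difference of -1.38 passed (adjusted p = 0.0385, limma), but it was -0.40 with normexp background (adjusted p = 0.275) and -0.44 in the authors' value table (adjusted p = 0.0325). The call was lost in 9 of 18 alternatives, among them no filter on dim probes (adjusted p = 0.0942) and the omission of single arrays, namely wild-type replicates 1, 3 and 4 and mutant replicates 1, 2 and 3 (0.0594 to 0.113). No probe was assigned to the alternative exons that set ligand choice of Fgfr2.

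Fgfrl1, the receptor-like protein without a kinase, showed the smallest of the 4 falls. Its single probe A_51_P293715 (chr5:108946807-108946866) read 2.24, 1.86, 1.83 and 2.05 in the wild-type and 1.10, 1.21, 1.24 and 1.46 in the mutant pools. All mutant pools were lower than all wild-type pools. The mean went from 2.00 ± 0.19 to 1.25 ± 0.15 (SD, n = 4), which is 1.67-fold (difference -0.74 ± 0.13 SE, adjusted p = 0.0205, limma), with -0.62, -0.55 and -0.94 on the slides. This call depended on single libraries, since the adjusted p was 0.0684 without wild-type replicate 4, 0.0692 without mutant replicate 1 and 0.0642 without mutant replicate 2. It was also lost when dim probes of other genes were kept in the test (adjusted p = 0.0591). Over 19 alternatives the adjusted p ran from 0.00555 to 0.101.

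**Figure D2:**
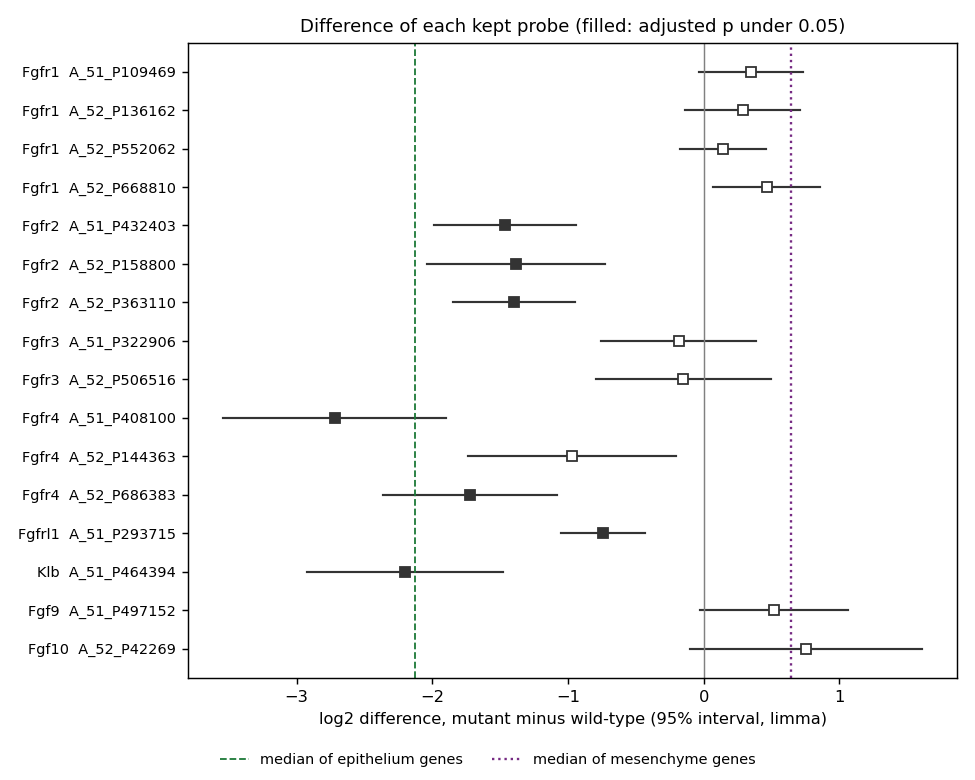
Log2 difference of mutant minus wild-type for the 16 probes kept, with 95% intervals from limma, filled where the adjusted p over all probes was under 0.05. Dashed and dotted lines mark the median differences of the epithelium genes (-2.13) and the mesenchyme genes (0.64); Klb lies nearest to the first, and Fgf9 and Fgf10 nearest to the second.

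Fgfr1, the receptor typical of mesenchyme, was measured by 4 probes, and none passed the test. The brightest, A_52_P668810, read -0.62, -0.23, -0.27 and -0.09 in the wild-type and 0.27, 0.38, -0.22 and 0.22 in the mutant pools. Mutant replicate 3 lay among the wild-type pools, and the other mutant pools lay above them. The difference was 0.46 (95% interval 0.07 to 0.86), with an adjusted p of 0.177 in limma and a p of 0.0571 in a two-sided exact permutation test, for which 0.0286 is the smallest possible value. With arrays weighted by quality it passed (0.47, adjusted p = 0.0299), and over 19 alternatives the adjusted p ran up to 0.356.
The overlapping probe A_51_P109469, printed 10 times with a median spot SD of 0.052, gave a difference of 0.35. The remaining pair, A_52_P136162 and A_52_P552062, gave 0.29 and 0.14. All 4 differences were above 0, and the adjusted p of the last 3 lay at 0.356, 0.542 and 0.750 in limma.

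Fgfr3 did not separate the genotypes. Its probe A_52_P506516 read -0.67, -0.40, -0.17 and -0.41 in the wild-type and -0.53, -0.65, -1.26 and 0.19 in the mutant pools. Mutant replicates 3 and 4 were the lowest and the highest of all 8. The difference was -0.15 (95% interval -0.80 to 0.50, adjusted p = 0.882, limma), and without mutant replicate 3 it was 0.08. The overlapping A_51_P322906 gave -0.18. The third probe, A_51_P237613 (chr5:34052602-34052661), was well above background only in wild-type replicate 3.

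Fgf9, a ligand that in other organs passes from epithelium and mesothelium to mesenchyme, showed no difference past the threshold. Its probe A_51_P497152 (chr14:57063697-57063756) read -1.10, -0.14, -0.22 and -0.36 in the wild-type and 0.27, 0.23, -0.33 and 0.09 in the mutant pools. Wild-type replicate 1 was the lowest, and mutant replicate 3 fell among the wild-type pools. The difference was 0.52 (95% interval -0.02 to 1.06, adjusted p = 0.290, limma), with -0.19, 0.40 and 0.96 on the slides.

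Fgf10, the mesenchymal growth signal to pancreatic progenitors, was dim but well above background on all 8 arrays. Its probe A_52_P42269 (chr13:119910431-119910490), printed 10 times, read -4.25, -3.13, -2.87 and -3.65 in the wild-type and -2.56, -2.94, -1.98 and -3.39 in the mutant pools. The ranges overlapped, with the lowest value in wild-type replicate 1 and the highest in mutant replicate 3. The median spot SD within an array was 0.12, against 0.61 between wild-type and 0.60 between mutant pools. The difference was 0.76 (95% interval -0.10 to 1.61, adjusted p = 0.340, limma), and it was 1.15, -0.11 and 1.01 on the 3 slides. With normexp background it was 0.33.

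Fgf7, the other mesenchymal ligand of epithelial Fgfr2, was not tested. Its only probe, A_51_P465331 (chr2:125780852-125780911), was well above background in wild-type replicate 3 and mutant replicate 1 alone, with processed signals of 51.4 and 25.6. The other 6 arrays read between 3.94 and 11.04. The same arrays stood out at the dim Klb probe.

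The 4 genes that fell were set against the epithelium genes, because those fell as well. Subtracting the mean of the 23 epithelium genes on each array left Fgfr4 (A_51_P408100) lower in the mutant by -0.73 and Klb by -0.22, Fgfr4 without and Klb with overlap between genotypes. The same subtraction turned the sign for Fgfr2 (A_52_P363110, 0.59) and for Fgfrl1 (1.24), both without overlap. Any gene that fell less than that mean comes out higher by the subtraction itself. The members that did not pass came out higher too, without overlap. They gave 2.45 for Fgfr1 (A_52_P668810), 1.84 for Fgfr3 (A_52_P506516), 2.50 for Fgf9 and 2.74 for Fgf10. Single epithelium genes ran from -2.75 to -0.14, a spread that holds the differences of all 4 genes. At the other pair of Fgfr4 probes the remainder was 0.26 (A_52_P686383) and 1.02 (A_52_P144363).
Within each array the Fgfr4 difference at A_51_P408100 exceeded that of Fgfr2 by -1.32 and that of Klb by -0.52, while the other Fgfr4 probes (-1.72 and -0.97) changed by less than Klb (-2.20). The Fgfr2 difference exceeded that of Fgfrl1 by -0.65, and in these 3 ratios the genotypes lay apart. Klb against Fgfr2 gave -0.81 with overlap.
The members that did not pass were also set against the mesenchyme genes. After subtraction of their mean, the difference was -0.10 for Fgfr1 (A_52_P668810), -0.04 for Fgf9, 0.20 for Fgf10 and -0.71 for Fgfr3 (A_52_P506516), all with overlapping genotypes. The other Fgfr1 probes gave -0.21 (A_51_P109469), -0.27 (A_52_P136162) and -0.42 (A_52_P552062), also with overlap. Against the same mean, the falling genes gave -3.28 for Fgfr4 (A_51_P408100), -2.76 for Klb, -1.96 for Fgfr2 (A_52_P363110) and -1.30 for Fgfrl1. These were all without overlap, and each remainder depends on the list that was subtracted.

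**Figure D3:**
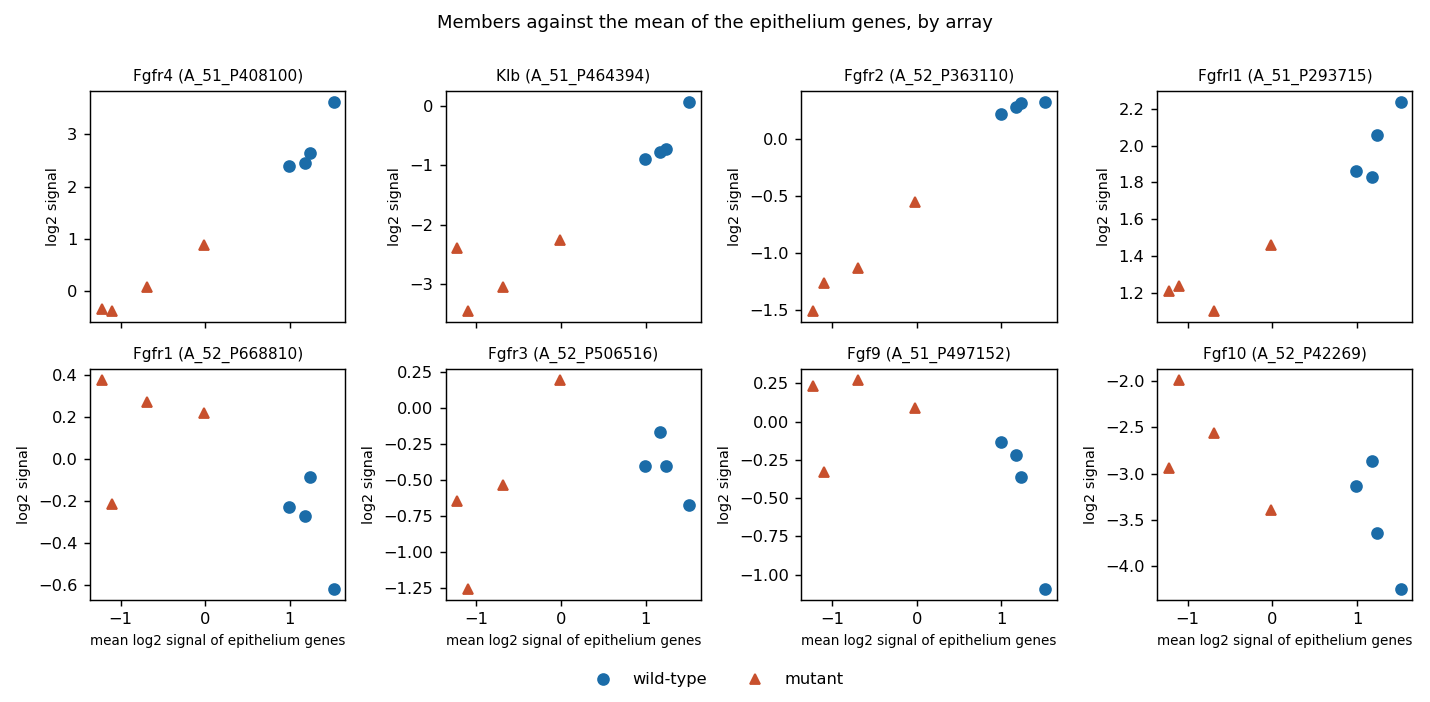
Log2 signal of the 8 tested genes (brightest probe, vertical axes with own ranges) against the mean log2 signal of the epithelium genes in each of 8 arrays. Fgfr4, Klb, Fgfr2 and Fgfrl1 are lower on the mutant arrays (triangles), and mutant replicate 4, the mutant array with the highest epithelium mean (-0.02), is their highest mutant array.

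Correlations between the 4 falling genes were high over all arrays, where the shared fall sets them, and varied within genotypes. As a description over arrays that share genotype, slide and dissection, Pearson's r was 0.97 between Fgfr4 and Fgfr2 and 0.97 between Fgfr4 and Klb, and 0.74 and 0.75 after the genotype means were removed. Within genotypes it was 0.54 between Fgfr2 and Fgfrl1 and 0.33 between Fgfr2 and Klb. Fgfr1 and Fgf9 ran together with an r of 0.92, and 0.86 within genotypes. Klb and Fgf10 ran opposite to each other, with -0.82 over all arrays and -0.92 within genotypes. Fgf10 also ran opposite to Fgfr4 (-0.83 within genotypes) and Fgfrl1 (-0.82). Wild-type replicate 1, the array with the lowest 75th percentile, read highest for Klb, Fgfr4 and Fgfrl1 and lowest for Fgf10. Its part in these correlations was not tested.
The genes most like Fgfr2 over the 8 arrays were Nkx6-1, a transcription factor of pancreatic progenitors and beta cells, followed by Chrna4, Elapor1, Fmo2 and BC038907. Their r lay between 0.996 and 0.999, and all 5 fell. Most like Fgfr4 were Cited1, Gal3st1, Dnajc22, Esrp2 and Syngr1, with r between 0.998 and 0.999, and these 5 fell too. Over all 8 arrays the gap between genotypes sets such an r, so genes chosen for likeness to Fgfr2 or Fgfr4 fall by that choice. Shared regulation was not tested. Most like Fgf10 were Zfp709, 1810011H11Rik, Rpgrip1, Zfp90 and Frmd7, with r between 0.963 and 0.973, and none of these passed the test.

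Outside the 9 genes, the pathway was read from lists. Of 11 other Fgf ligands tested, Fgf13, an intracellular Fgf homologue, rose by 0.73 (adjusted p = 0.0417, limma) and the other 10 did not pass, with a median of 0.31 beside 0.02 for all genes. The brightest of these were Fgf18 (0.31), Fgf11 (0.42) and Fgf5 (0.43). Of 27 co-receptors, heparan sulfate enzymes and ligand carriers, 3 rose and none fell (median 0.15), beside 1.56% and 3.82% of all genes tested. Those 3 were the syndecan Sdc3 (0.45), the sulfotransferase Hs6st2 (0.46) and Sulf2 (0.78), an enzyme that removes sulfate groups from heparan sulfate. Their adjusted p values were 0.0451, 0.0331 and 0.0426 in limma. At an unadjusted p under 0.05 in limma, 6 of the list were higher and 3 lower. Sdc4 was among the lower (-0.55, adjusted p = 0.0589, limma), without overlap between genotypes. Agrn, Gpc3 and Ndst1, the brightest of the rest, gave 0.13, 0.21 and 0.11.

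Genes downstream of the receptors showed no call in these bulk samples. Among all genes tested 5.37% passed, so lists of this size would hold few calls at that share. None of 25 receptor-proximal signalling genes passed in limma (median 0.06, 1 gene at an unadjusted p under 0.05), with 0.13 for Akt1 and 0.08 for Ptpn11. None of 13 response and feedback genes passed (median 0.04), with 1 higher and 3 lower at an unadjusted p under 0.05. The 3 lower were Myc (-0.69), Etv4 (-0.68) and Etv5 (-0.64), with an adjusted p of 0.0931, 0.0986 and 0.105 in limma. Spred1 was the 1 higher (0.35, adjusted p = 0.191, limma). Of the brightest genes of this list, Dusp6, a phosphatase induced by Mapk signalling, read 3.95 on average in both genotypes. Spry1, a feedback inhibitor, gave 0.24.

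Esrp1 and Esrp2, splicing factors that favour the epithelial exon of Fgfr2, were also lower in the mutant. Of 8 genes listed for Fgfr2 exon choice, Esrp1 fell by 2.50 (adjusted p = 0.0284, limma) and Esrp2 by 1.92 (adjusted p = 0.00957). The other 6 did not pass, among them Ptbp1 (-0.02), Celf1 (-0.08) and Tia1 (0.12). Of those 6, Rbfox2 was the 1 gene higher at an unadjusted p under 0.05 (0.40, adjusted p = 0.0639, limma), without overlap between genotypes. Both Esrp genes also stand on the epithelium list. Of 8 genes tied to Fgfr4 and Klb in liver and gut, 3 were bright enough to test. Nr5a2, a nuclear receptor, fell by 2.48 (adjusted p = 0.00957, limma), while Nr0b2 (-1.38) and the bile acid receptor Nr1h4 (-0.51) did not pass.

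**Figure D4:**
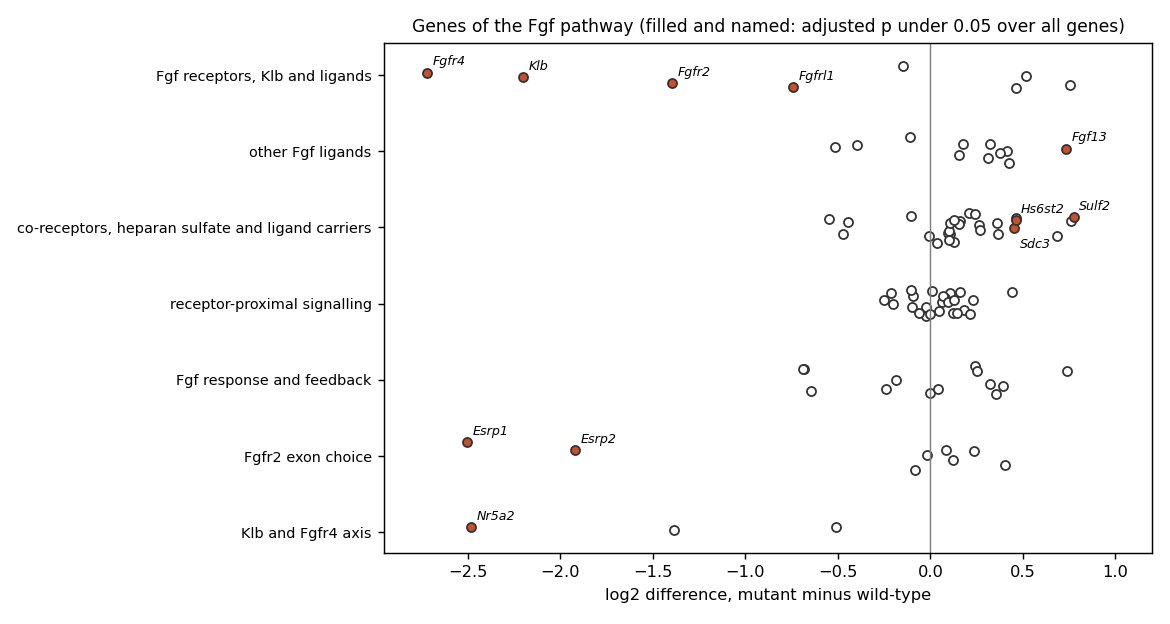
Log2 differences of mutant minus wild-type for the tested genes of this set and of 6 lists of the Fgf pathway, each point a gene and vertical scatter within a list arbitrary. Filled, named points passed an adjusted p of 0.05 over all genes, as did 5.37% of all genes tested. None of the 25 receptor-proximal and 13 response genes is filled.

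Promoter sequence was read from RefSeq, on GRCm38.p6, for 250 bases upstream of each start, and 8 of the 9 genes matched with 9 promoters. Sox factors bind a short AT-rich core. The letters ACAAT of that core, or ATTGT on the other strand, were found in 1 of the 9, that of Klb, 55 bases before the start, and in 27.7% of 32851 promoters. The longer AACAAT, which contains the shorter motif, was found on neither strand in any of the 9, and in 9.42% of all. The Klb promoter (chr5:65348161-65348410, plus strand) is shown because it holds the match, in capitals, which is a description and not a binding site.
Klb promoter: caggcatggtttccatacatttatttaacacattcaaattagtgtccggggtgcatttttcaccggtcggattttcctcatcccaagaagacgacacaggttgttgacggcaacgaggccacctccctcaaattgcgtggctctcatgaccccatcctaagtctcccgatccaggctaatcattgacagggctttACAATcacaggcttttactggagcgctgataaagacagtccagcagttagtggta
The promoters of the other falling genes differed from each other in base composition, with GC shares of 44.0% for Fgfr2, 64.0% for Fgfr4 and 73.6% for Fgfrl1, beside 48.0% for Klb and a median of 52.4% over all promoters.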

How the data were processed

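Scanner files of 8 arrays were used. Per the file headers, Agilent Feature Extraction 9.5.3.1 produced them, and their deposited processed signal is a background-subtracted intensity, not normalized between arrays. The deposited mean and background intensity values served the normexp alternative (offset 50), and the deposited quality flags are other than a measurement. The authors' value table holds intensity values whose median is 227 on every array; its rows match the spots by place (rank correlation at least 0.999). The submitters' processing notes name limma, with no version and no steps. Of 45018 spots, 1639 controls and the flagged spots were left out. Log2 signals minus the 75th percentile of the array were averaged per probe, 27389 probes well above background on at least 4 arrays were kept, and a gene took its brightest probe. A two-sided limma fit (version 3.58.1, R 4.3.3) compared the genotypes, p-values were adjusted by Benjamini-Hochberg over every gene or every probe tested, and the code was tested on simulated data. Single values had an exact permutation test over 70 assignments. Alternatives were background, scaling, filter, flags, slide, replicate number, array weights, value source, probe choice and each replicate left out. Members and lists were chosen with earlier results of these data known. Named genes were all members, each listed pathway gene past the threshold with up to 3 of the brightest others, and Sox9. Response and feedback genes at an unadjusted p under 0.05 were named too, and so were Rbfox2 and Sdc4. From the marker lists, up to 3 genes past the threshold per list were named by size, and from likeness the 5 genes most like Fgfr2, Fgfr4 and Fgf10. The number of arrays limits the precision.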

Additional observations from a re-analysis of the deposited data

Results flagged for a closer look

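Among 32 groups of 4 arrays examined, those of the 16 probes kept, 1 held an array far from the others. Wild-type replicate 1 read 0.067 at the Klb probe A_51_P464394, the highest of its group, and the next wild-type pool read -0.73, a gap of 0.831 of the group's range, just past Dixon's critical value for 4 values. Chance flags about 1 in 20 such groups. Without this array the Klb difference was -1.98 and passed the threshold (adjusted p = 0.0281, limma). Probes not kept were left out of this count. Of these, the dim Klb probe A_52_P203368 was also past the critical value, with a gap of 0.889 of the range at wild-type replicate 3.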

How the results depend on the processing

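In the fit over genes, Fgfr4, Klb and Fgfr2 passed the threshold in all 19 alternatives run. Their differences were -2.99 to -1.80, -2.38 to -1.52 and -1.58 to -1.20. In the fit over all probes, the Klb probe A_51_P464394 lost the call in 1 of 18 alternatives, the replicate block (adjusted p = 0.0538, limma). Fgfrl1 gave -0.74 with no filter on dim probes (adjusted p = 0.0591) and -0.74 with the replicate block (adjusted p = 0.101), and -0.81 to -0.66 with single replicates left out. Fgfr1 passed with array weights alone (0.47). Fgfr3 changed sign without mutant replicate 3 (0.084, in a range of -0.40 to 0.084 over the replicates left out), and so did its probe A_51_P322906 (0.024, range -0.37 to 0.024). A_52_P506516 did so too (0.084) and with array weights (0.0016). The count of genes past the threshold, 994, was 419 with no filter, 1534 with the slide as a random block, 340 with the replicate block, 2021 with array weights and 395 to 976 with single replicates left out. For probes, 1027 became 409, 1675, 326, 2181 and 294 to 972. In the values deposited by the authors, 553 genes were higher and 753 lower, against 288 and 706. Same-numbered samples of the genotypes did not deviate together (correlations of -0.35, -0.30, -0.0053 and 0.087), so the replicate numbers were not taken as pairs; the cause of the changed calls was not tested. Probes near background, such as those of Fgf7, limit what can be read from them.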

Other observations

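The overlapping Fgfr1 probes, which differ by G36A in the shared bases, did not run quite in parallel. On each array the log2 ratio of A_52_P668810 to A_51_P109469 lay between 0.02 and 0.071 in the wild-type and between 0.15 and 0.19 in the mutant pools, a difference of 0.12 with no overlap. The overlapping Fgfr3 probes, which differ by C5T, gave a difference of 0.035 with overlap. Neither difference was tested.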
